A study of Mus musculus with 6 samples.

Results

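The 10 genes described here belong to the BCL2 family, and were found by symbol among the 32287 features of the gene matrix, each once. The anti-apoptotic members were Bcl2, Bcl2l1, Mcl1, Bcl2a1b and Bcl2a1d. The pro-apoptotic members were the effectors Bax and Bak1 and the BH3-only genes Bid, Bcl2l11 and Bbc3. BCL2 family proteins meet at the outer mitochondrial membrane. BAX and BAK1 open that membrane and release cytochrome c, BCL2 and its anti-apoptotic relatives hold them back, and BH3-only proteins sense stress or lost growth signals and block the anti-apoptotic proteins or activate the effectors. Blood cells of different lineages are known to rely on different anti-apoptotic members.

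The cells were CD11b hi TOM+ cells sorted from inguinal lymph nodes of 4 CD169 Tom mice, in which Cre under the Siglec1 (CD169) gene switches on tdTomato for good, so that cells which once used the gene and all their progeny are marked. All 4 mice were Cd169Cre/+.Tdtomatofl/fl on a C57BL/6J background and over 6 weeks old. Of these mice 2 were unimmunized and 2 were taken at day 9 after immunization with HEL (hen egg lysozyme), with no other allele or agent given in the labels. Each mouse had its own hashtag, a DNA-tagged antibody that marks cells before pooling, and the pool was run as 2 captures that each held cells of all 4 mice. The mouse was the replicate, and GEO's 6 libraries are the mRNA, antibody and hashtag libraries of the captures.

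After filtering, 12139 cells remained, namely 2828 and 537 from the unimmunized mice and 4052 and 4722 from the immunized mice, with median depths of 5877, 6280, 9674 and 12728 UMIs per cell. A UMI marks 1 captured mRNA molecule. Cells were gated with 6 marker genes for each of 13 cell types, and 4543 cells (37.4%) passed, which gave 39 libraries of at least 10 cells from 1 mouse and 1 type, holding 24657 to 10721717 UMIs. In each gate 3 to 6 of its own markers were among its 10 leading genes. The gating rule itself selects for this, so it is no separate check of the gates. Cells only 2 markers ahead of the next type made up from 6.16% (B cell-like) to 81.8% (inflammatory macrophage-like) of a gate. Unimmunized mouse 2 stood apart by its few cells, with 11 to 44 in each of its libraries. Levels are given as CPM, a gene's UMIs per 1000000 UMIs of the library. Although the sort was for CD11b, Itgam, which encodes it, was at 6.62 CPM in the alpha-beta T-like and 12.9 CPM in the B cell-like gate. It was at 159 CPM in classical monocyte-like and 128 CPM in NK-like cells. Low values were also found in the myeloid migratory DC-like (15.1 CPM) and cDC1-like gates (8.6 CPM). Tomato was at 7.75 CPM or below in every gate. It was at 0.45 CPM in NK-like, 0.96 in B cell-like, 1.10 in alpha-beta T-like and 2.24 CPM in gamma-delta T-like cells. Among myeloid gates it was at 7.18 CPM in classical monocyte-like, 3.79 in migratory DC-like and 2.52 CPM in DC2-like cells. In the cDC1- and neutrophil-like gates it was at 0. The paper calls the B cells and NKT cells among its sorted cells contaminating. Cell types present in all 4 mice were the alpha-beta T-, NK- and B cell-like lymphoid gates and the classical monocyte-, nonclassical monocyte-, DC2- and migratory DC-like myeloid gates.

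Bcl2a1b and Bcl2a1d are copies, both on chromosome 9, of the gene for A1, a short-lived anti-apoptotic protein of blood cells that is induced by inflammatory signals. Their transcripts were 99.1% identical over 817 aligned bases, and 99.3% identical over the last 300 bases, the end that 3′ counting reads. The split of UMIs between them and their near copy Bcl2a1a is therefore uncertain, and the sum of the 3 was fitted as well. Their promoters, the windows around the start site in RefSeq (GRCm38.p6), are shown because these members had the largest myeloid excess of the 10 and because the windows show how alike the copies are. The windows were 98.8% identical over the 250 bases that aligned. Bcl2a1b lies at chr9:89199209-89207827 on the plus strand and Bcl2a1d at chr9:88723285-88731914 on the minus strand, and the windows printed are chr9:89199023-89199322 and chr9:88731801-88732100. Capitals mark GAGGAAGT, letters bound by ETS factors such as PU.1, searched on both strands.
Bcl2a1b: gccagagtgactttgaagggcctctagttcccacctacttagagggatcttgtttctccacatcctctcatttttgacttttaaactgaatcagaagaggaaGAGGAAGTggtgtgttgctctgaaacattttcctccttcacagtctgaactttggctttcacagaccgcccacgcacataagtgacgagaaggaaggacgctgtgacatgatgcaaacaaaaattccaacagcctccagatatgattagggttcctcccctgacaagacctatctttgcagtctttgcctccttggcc
Bcl2a1d: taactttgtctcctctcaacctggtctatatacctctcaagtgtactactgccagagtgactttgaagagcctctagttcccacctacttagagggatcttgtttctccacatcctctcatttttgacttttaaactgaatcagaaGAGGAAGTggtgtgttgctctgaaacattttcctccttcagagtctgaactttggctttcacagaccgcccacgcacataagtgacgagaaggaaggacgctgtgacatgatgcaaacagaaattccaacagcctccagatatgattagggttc
The ETS letters stood in 3.20% of the 32851 promoter windows of the reference. The 10 members had 15 windows, and the letters stood in those of 3 members, Bcl2a1b, Bcl2a1d and Bak1. As the Bcl2a1b and Bcl2a1d windows are near copies, their matches are not separate ones. A match in these letters is a description, not a binding site.

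The first question was whether the survival members differ between the myeloid and the lymphoid gates. Bcl2 had the largest fold change towards the lymphoid gates and the A1 genes the largest towards the myeloid ones, while by level Mcl1 had the highest lymphoid median of the 10, at 265 CPM. Bcl2 lay 3.54 log2 units lower in myeloid gates, while Bcl2a1b and Bcl2a1d lay 2.38 and 3.02 log2 units higher and Mcl1 0.97 higher. Both effectors and Bbc3 were higher in myeloid gates too, and Bid was lower. In all, 8 of 10 members passed the test, 6 of them higher and 2 lower, in a comparison in which 44.8% of the 10930 genes tested were called. The members' median log2 fold change was 0.79, against -0.01 over all genes tested. Lineage ranges and medians in CPM, here and below, cover only the 7 cell types present in all mice, called complete. The test was edgeR's quasi-likelihood test on summed counts, with Benjamini-Hochberg adjustment over all genes and a threshold of 0.05, and each of the 7 cell types weighed the same.

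Bcl2, the founding member of the family (chr1:106538178-106714274, minus strand), lay between 92.8 and 416 CPM in the 12 lymphoid libraries, with a median of 135.5 CPM. In the 16 myeloid libraries its lowest level was 0, its median 17.3 and its highest 93.4 CPM. The overlap came from 1 myeloid library, nonclassical monocyte-like cells of unimmunized mouse 1, which lay just above the B cell-like library of unimmunized mouse 2 and the alpha-beta T-like library of immunized mouse 1 (93.3 CPM). The log2 fold change of myeloid minus lymphoid was -3.54 ± 0.15 (SE, edgeR adjusted p = 1.65e-19), and it was -3.49 in capture 1 alone and -3.64 in capture 2 alone.

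NK-like cells held the most Bcl2, at 391 and 276 CPM in the unimmunized and 416 and 334 CPM in the immunized mice. All 4 of these libraries lay above every other library. Among lymphoid gates the NK-like level was higher by 1.51 ± 0.18 log2 units (SE, edgeR adjusted p = 5.73e-08). Next came the gamma-delta T-like gate (130 CPM, 1 library), alpha-beta T-like (121 ± 20.5 CPM, SD, n = 4) and B cell-like cells (115 ± 30.6 CPM, SD, n = 4), neighbours whose ranges overlapped.

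Nonclassical monocytes are the patrolling monocytes, and among myeloid gates they were the ones with Bcl2. Their libraries held 93.4 and 57.0 CPM in the unimmunized and 43.0 and 32.7 CPM in the immunized mice. All 4 lay above the libraries of the other 3 complete myeloid gates, the highest of which was a DC2-like library at 25.2 CPM. Against the mean of those 3 gates the difference was 2.66 ± 0.24 log2 units (SE, edgeR adjusted p = 3.33e-10). DC2-like cells came next at 20.2 ± 3.86 CPM (SD, n = 4), with the classical monocyte-like gate at 11.4 ± 6.99 CPM (SD, n = 4).

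At the other end, migratory DC-like cells, the CCR7-positive dendritic cells that have travelled to the node, held 8 UMIs of Bcl2 in all 4 mice together. Their levels were 4.92 and 0 CPM in unimmunized and 1.47 and 2.24 CPM in immunized mice, and the library at 0 allows up to 27.8 CPM (3 counts of its total, counting error only). Against the other myeloid gates Bcl2 was lower by 2.77 ± 0.43 log2 units (log2 fold change -2.77, SE, edgeR adjusted p = 2.81e-06). With every cell thinned to 1000 UMIs the same difference was -2.07 with an adjusted p of 1.00 from edgeR.

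**Figure D1:**
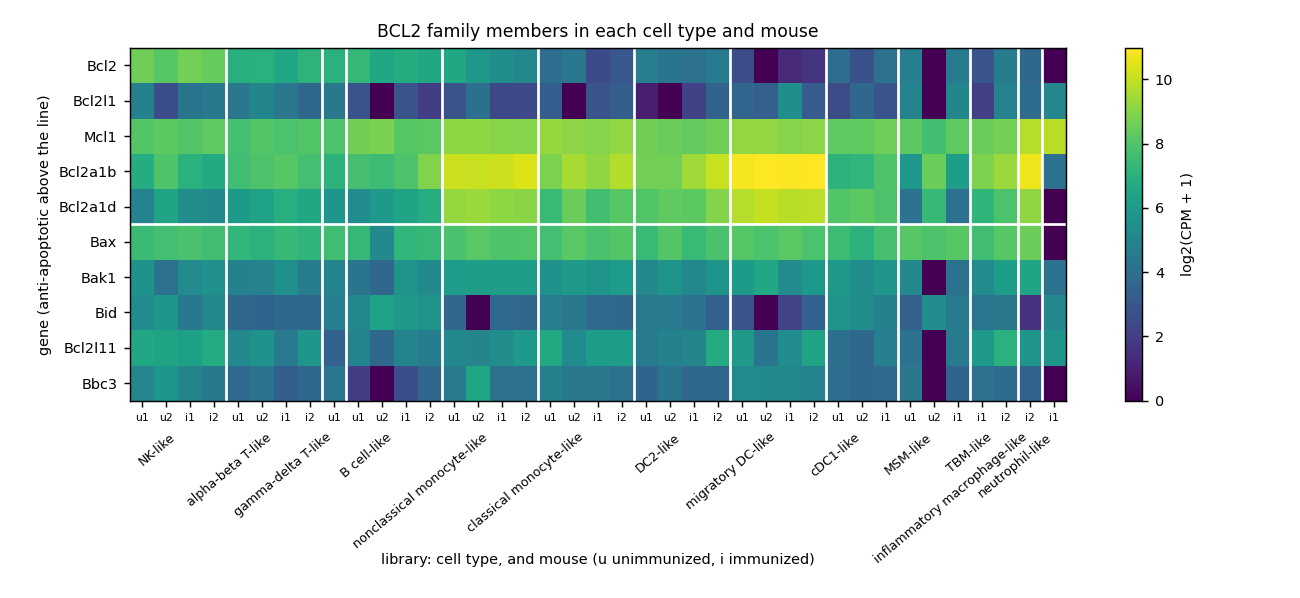
Level of each of the 10 members, as log2(CPM + 1) on the colour scale, in the 39 libraries, grouped by gated cell type and labelled by mouse (u unimmunized, i immunized), with anti-apoptotic genes above the white line. Bcl2 is brightest in the NK-like libraries and Bcl2a1b in the migratory DC-like libraries, where Bcl2 is near 0.

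Bcl2a1b showed the opposite order. Its 16 myeloid libraries ran from 402 to 2021 CPM with a median of 1070 CPM, and its 12 lymphoid libraries from 104 to 475 CPM with a median of 208 CPM. The ranges touched only between 402 and 475 CPM, where the B cell-like library of immunized mouse 2 was the highest lymphoid one. Myeloid minus lymphoid was 2.38 ± 0.14 log2 units (SE, edgeR adjusted p = 5.61e-16). In the same gates Bcl2a1d did not overlap at all, with 167 to 1021 CPM in myeloid and 29.4 to 116 CPM in lymphoid libraries. It was the only member of the 10 whose lineages did not overlap there, against 1.9% of all genes tested. Of the other myeloid gates, the MSM-like libraries ran from 16.0 to 162 CPM and the neutrophil-like library was at 0. The TBM-, cDC1- and inflammatory macrophage-like libraries lay above the lymphoid ones. The lineage difference of Bcl2a1d was 3.02 ± 0.15 log2 units (SE, edgeR adjusted p = 1.19e-17). The summed counts of the 3 A1 copies gave 2.59 ± 0.14 (SE, edgeR adjusted p = 1.21e-16), so the direction did not rest on how reads were split between them.

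The migratory DC-like gate held the most of both A1 genes. Bcl2a1b stood at 1844 and 1967 CPM in the unimmunized and 1923 and 2021 CPM in the immunized mice, all above every other library of the 13 gates. Bcl2a1b was higher there than in the other myeloid gates by 1.49 ± 0.17 log2 units (SE, edgeR adjusted p = 8.94e-09) and Bcl2a1d by 1.51 ± 0.17 (SE, edgeR adjusted p = 5.10e-09). The inflammatory macrophage-like gate, with a single library of immunized mouse 2, came next with 1655 CPM of Bcl2a1b, and the nonclassical monocyte-like gate followed at 1171 ± 133 CPM (SD, n = 4). Classical monocyte-like (650 ± 174 CPM), DC2-like (640 ± 315 CPM, SD, n = 4 each) and TBM-like cells (559 ± 130 CPM, SD, n = 2) overlapped. Then came the B cell-like (279 ± 133 CPM) and alpha-beta T-like gates (230 ± 38.8 CPM, SD, n = 4 each). The myeloid cDC1-like (179 ± 60.8 CPM) and MSM-like gates (164 ± 174 CPM, SD, n = 3 each) ranked below these by mean. At the low end stood the NK-like gate with 146 ± 65.9 CPM (SD, n = 4) and the gamma-delta T-like gate with 135 CPM. Last was the neutrophil-like gate with 16.6 CPM, which is 1 UMI in 10 cells.

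Mcl1, a short-lived anti-apoptotic protein that many blood cells need (chr3:95658788-95663176, plus strand), had the narrowest spread of the anti-apoptotic members in fold terms. In the complete gates its myeloid libraries lay between 328 and 598 CPM and its lymphoid libraries between 204 and 441 CPM. The difference between these was 0.97 ± 0.09 log2 units (SE, edgeR adjusted p = 2.40e-11). Of the other myeloid gates, the MSM-like libraries ran from 203 to 309 CPM and the cDC1-like ones from 317 to 380 CPM. The TBM-like libraries were at 366 and 414 CPM. The single inflammatory macrophage- and neutrophil-like libraries were at 876 and 894 CPM. The DC2-like gate was the lowest of the 4 complete myeloid gates at 364 ± 27.0 CPM (SD, n = 4), against 536 to 556 CPM in the other 3, by 0.64 log2 units (log2 fold change -0.64 ± 0.13, SE, edgeR adjusted p = 3.57e-04). Thinned to 1000 UMIs per cell, this difference was -0.53 with an edgeR adjusted p of 0.19.

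Bcl2l1, which encodes BCL-XL (chr2:152780668-152831728, minus strand), was among the members with the fewest UMIs. The myeloid libraries ran from 0 to 43.5 CPM and the lymphoid ones from 0 to 31.5 CPM. The difference of -0.80 ± 0.43 log2 units did not pass (SE, edgeR adjusted p = 0.13), and was -1.33 in capture 1 and 0.18 in capture 2. It passed without immunized mouse 2 (-1.02, edgeR adjusted p = 0.016) and with Leiden clusters in place of the gates (-0.99, edgeR adjusted p = 0.0044). Its migratory DC-like libraries held 11.1 and 9.28 CPM in unimmunized and 43.5 and 7.85 CPM in immunized mice. The call there against other myeloid gates (2.05 log2 units, edgeR adjusted p = 0.0025) was lost without immunized mouse 1 (1.01, adjusted p = 0.14), without unimmunized mouse 1 (3.20, adjusted p = 0.43) and in capture 2 alone (1.56, adjusted p = 0.14).

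**Figure D2:**
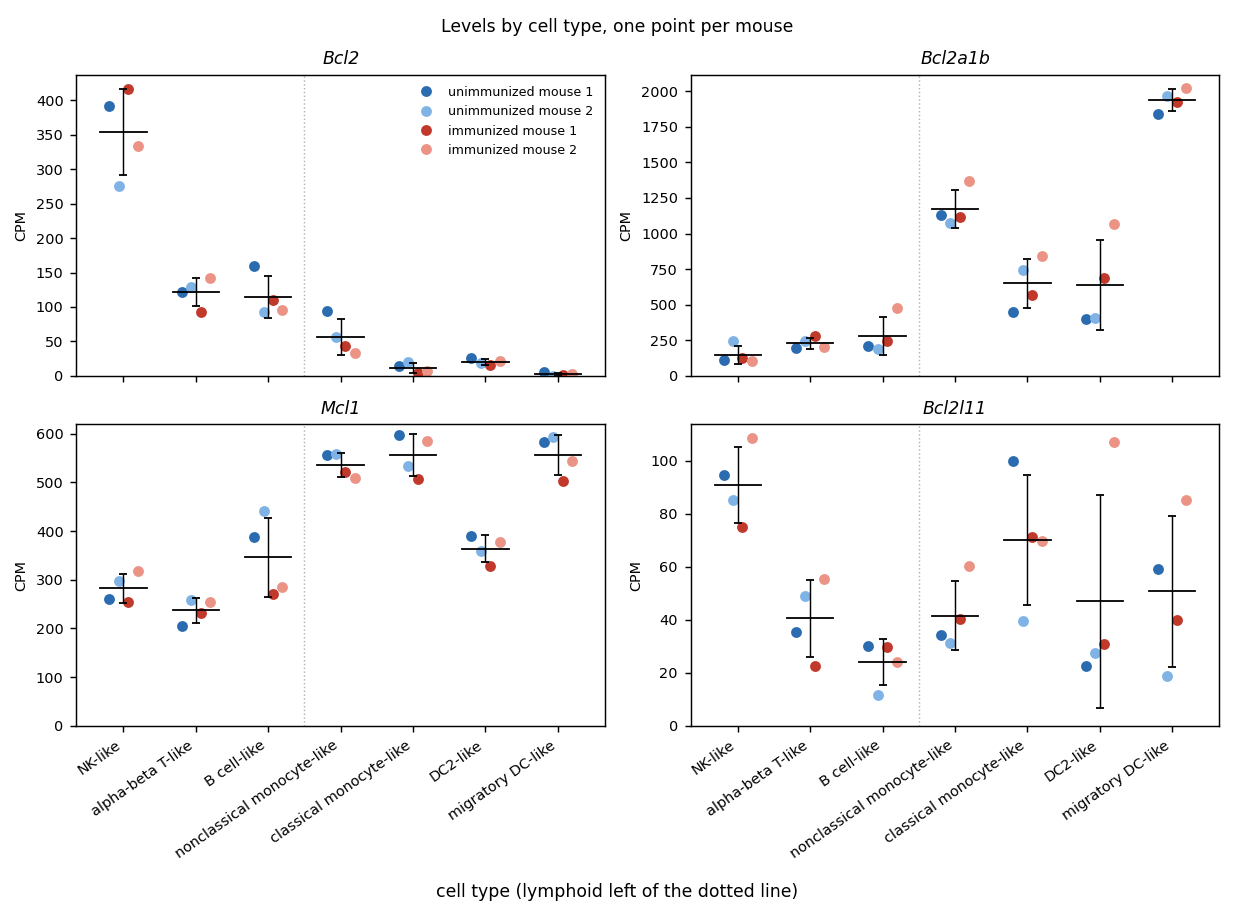
CPM (y axes, from 0) of Bcl2, Bcl2a1b, Mcl1 and Bcl2l11 in the 7 cell types present in all mice (x axis), with 1 point per mouse, the mean as a bar and the SD as whiskers. Bcl2 is higher left of the dotted line, in the lymphoid gates, and Bcl2a1b right of it, in the myeloid gates. Their points overlap across the line only between 92.8 and 93.4 CPM and between 402 and 475 CPM. The points of Bcl2l11 overlap widely.

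Bax, the effector that moves to mitochondria (chr7:45461697-45466898, minus strand), was the most counted pro-apoptotic member in both lineages by median. In the complete gates its myeloid libraries lay between 169 and 291 CPM and its lymphoid libraries between 34.8 and 226 CPM. The lowest of these values was the B cell-like library of unimmunized mouse 2. Of the other myeloid gates, the cDC1-like libraries ran from 133 to 213 CPM. The inflammatory macrophage-like library was at 362 CPM and the neutrophil-like one at 0. The MSM- and TBM-like libraries lay within the myeloid range. Myeloid minus lymphoid was 0.71 ± 0.12 log2 units (SE, edgeR adjusted p = 6.76e-06). Bak1 is the effector that already sits in the mitochondrial membrane (chr17:27019810-27029009, minus strand). In the complete gates it lay between 32.7 and 92.8 CPM in myeloid and between 11.6 and 50.7 CPM in lymphoid libraries. The difference was 0.86 ± 0.16 log2 units (SE, edgeR adjusted p = 3.21e-05). Its MSM-like libraries ran from 0 to 34.6 CPM, and the neutrophil-like library was at 16.6 CPM, from 1 UMI. Its TBM-, cDC1- and inflammatory macrophage-like libraries lay within the myeloid range.

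The 3 BH3-only genes did not share a direction. Bbc3, which encodes PUMA, a target of p53 (chr7:16308393-16318205, plus strand), was higher in myeloid gates by 1.06 ± 0.25 log2 units (SE, edgeR adjusted p = 5.98e-04), with 0.67 in capture 1 alone (edgeR adjusted p = 0.12) and 1.93 in capture 2 alone. In the complete gates its levels overlapped widely, from 10.8 to 88.0 CPM in myeloid and from 0 to 53.1 CPM in lymphoid libraries. By mean, DC2-like cells (13.2 CPM) were near alpha-beta T-like cells (12.8 CPM), and B cell-like cells were at 5.06 CPM from 12 UMIs. The other myeloid gates had means of 14.9 (TBM-like), 12.7 (cDC1-like), 10.1 (MSM-like), 9.69 (inflammatory macrophage-like) and 0 CPM (neutrophil-like). Within the lymphoid lineage Bbc3 was highest in NK-like cells, at 33.2 and 53.1 CPM in unimmunized and 30.5 and 20.9 CPM in immunized mice. That difference was 2.13 ± 0.38 log2 units (SE, edgeR adjusted p = 8.50e-05), and 1.65 with an edgeR adjusted p of 0.074 without immunized mouse 1.

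Bid, the protein through which death receptors reach the mitochondria when caspase 8 cuts it (chr6:120891930-120916853, minus strand), was lower in myeloid gates, with a log2 fold change of -1.05 ± 0.20 (SE, edgeR adjusted p = 4.63e-05). In the complete gates its myeloid libraries lay between 0 and 24.6 CPM and its lymphoid libraries between 10.5 and 81.2 CPM. Of the other myeloid gates, the cDC1-like libraries ran from 27.2 to 50.2 CPM and the MSM-like ones from 9.88 to 40.6 CPM. The neutrophil-like library was at 33.1 CPM, from 2 UMIs. The TBM-like libraries were at 19.1 and 19.4 CPM and the inflammatory macrophage-like one at 1.94 CPM. B cell-like cells held the most, with 33 and 81.2 CPM in the unimmunized and 60.4 and 51.1 CPM in the immunized mice. They exceeded the other lymphoid gates by 1.5 ± 0.30 log2 units (SE, edgeR adjusted p = 2.75e-04). The alpha-beta T-like gate held between 10.5 and 12.0 CPM in all 4 mice, below every other complete lymphoid library, and was lower by 1.83 log2 units (log2 fold change -1.83 ± 0.31, SE, edgeR adjusted p = 5.22e-05).

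Bcl2l11, which encodes BIM, the BH3-only protein that kills lymphocytes deprived of cytokine (chr2:128126038-128162547, plus strand), did not pass between lineages, at 0.34 ± 0.22 log2 units (SE, edgeR adjusted p = 0.22). It passed with no filter on low counts (0.39, edgeR adjusted p = 0.043), and its sign turned in other alternatives. Its medians were 40.03 CPM in myeloid and 42.2 CPM in lymphoid libraries. NK-like cells, the gate with the most Bcl2, also held Bcl2l11 at 94.7 and 84.9 CPM in unimmunized and 74.9 and 109 CPM in immunized mice. These were above all other complete lymphoid libraries. Against the mean of the other complete lymphoid gates the difference was 1.40 ± 0.33 log2 units (SE, edgeR adjusted p = 0.0028). That call was lost without unimmunized mouse 1 (1.57) and without unimmunized mouse 2 (1.41). It was also lost when thinned to 1000 UMIs (0.83, edgeR adjusted p = 0.41).

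**Figure D3:**
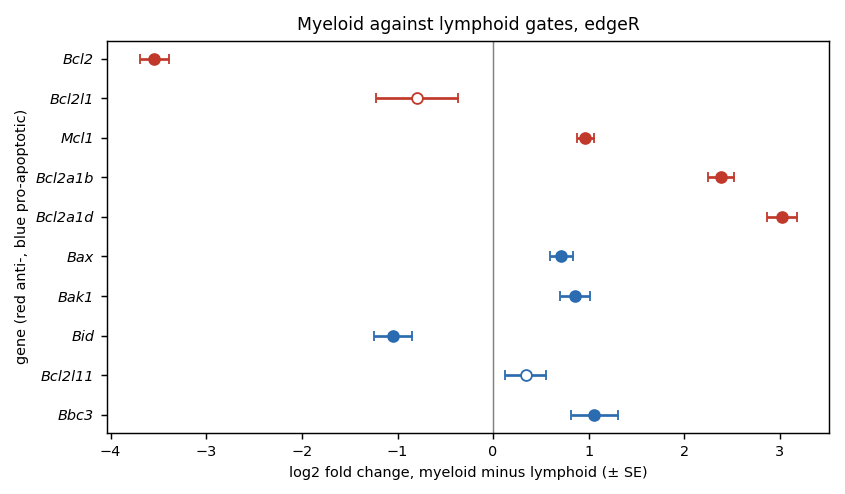
Log2 fold change of myeloid minus lymphoid gates with its SE (x axis) for each member (y axis), red for anti-apoptotic and blue for pro-apoptotic genes, filled where the edgeR adjusted p was under 0.05. Bcl2 stands at -3.54 and Bcl2a1d at 3.02, and the pro-apoptotic genes lie between -1.05 and 1.06.

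Scaling moved all genes together to some extent. With library size alone in place of TMM factors the median of all genes shifted to -0.16, and the share of called genes that were higher in myeloid gates went from 53.5% to 41.0% (43.4% with RLE factors). All 8 members called kept their direction and their call under both, among them Bax at 0.57 and Bak1 at 0.71 with library size alone.

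Other genes of the pathway were read from 4 lists. Of the other BCL2 family genes 11 of 14 entered the test, with a median of 0.82 log2 units. Of these 5 were called higher in myeloid gates and none was called lower. The 3 largest of the 5 were Bcl2a1a, the other A1 copy (3.01 ± 0.21), Bmf, a BH3-only gene (2.96 ± 0.25), and Pmaip1, which encodes NOXA (2.74 ± 0.21 log2 units, SE). The fits of Bik and Bcl2l14 had SEs of 4961 and 5724 log2 units, so no direction can be read from them. Of 12 genes of mitochondrial death and caspases 7 were higher, among them Htra2 (2.07 ± 0.14) and Apaf1, the apoptosome scaffold (1.30 ± 0.18 log2 units, SE), and 5 did not pass. Of 7 inhibitors of caspases and death receptors 5 were higher, led by Birc3 (1.71 ± 0.12), Tnfaip3 (1.56 ± 0.16) and Birc2 (0.98 ± 0.13 log2 units, SE). The 1 that was lower was Birc5, the survivin gene that dividing cells use, with a log2 fold change of -4.17 ± 0.46 (SE). Of 8 death receptors and ligands 7 entered the test, and Tnfrsf1a (1.95 ± 0.22) and Fas (0.85 ± 0.22 log2 units, SE) were higher. Fasl and Tnfsf10 had SEs of 9512 and 4007 log2 units, so their direction cannot be read either. Over all genes tested 2621 were higher and 2277 lower.

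Each of the 7 complete gates was then set against the others of its own lineage. Of these 70 values for members 29 passed in edgeR, whose calls are the ones counted below, and 21 passed in DESeq2. In the migratory DC-like gate 7 of 10 members passed (34.3% of all genes tested), in the DC2-like gate 7 (17.4%), in the NK-like gate 5 (12.7%), in the B cell-like gate 5 (16%), in the classical monocyte-like gate 2 (15.6%), in the alpha-beta T-like gate 2 (10%) and in the nonclassical monocyte-like gate 1 (12.6%). Of the 29 calls 8 were kept in every alternative in which they were fitted. These were Bcl2 in NK-like and nonclassical monocyte-like cells, Bcl2a1b in the migratory DC- and DC2-like gates, Bcl2a1d in the migratory DC- and classical monocyte-like gates, and Bid in the B cell- and alpha-beta T-like gates. Without unimmunized mouse 1, 14 values passed, and without immunized mouse 1, 19 passed.

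In the DC2-like gate 6 of its 7 calls were lower than in the other myeloid gates. Bcl2a1b was the most stable of them, with a log2 fold change of -0.98 ± 0.20 (SE, edgeR adjusted p = 3.97e-04). In the classical monocyte-like gate Bcl2a1d was lower by 1.27 log2 units (log2 fold change -1.27 ± 0.20, SE, edgeR adjusted p = 1.83e-05). Bbc3 was called in 4 of these comparisons, higher in migratory DC- and NK-like and lower in DC2- and B cell-like cells. Without unimmunized mouse 1 it was 0.72 in migratory DC-like cells (edgeR adjusted p = 0.32) and -0.99 in DC2-like cells (edgeR adjusted p = 0.14). In B cell-like cells its -2.11 became -1.74 without immunized mouse 1 (edgeR adjusted p = 0.13), and did not pass in capture 1 alone (-1.66, adjusted p = 0.17) or capture 2 alone (-3.60, adjusted p = 0.10).

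Some macrophage and dendritic gates had at least 10 cells in both mice of 1 condition only, and were set against the 4 complete myeloid gates in that condition, a comparison added after the cell counts had been seen. The TBM-like gate was named after tingible body macrophages, which clear apoptotic germinal centre B cells. Its markers do not establish that identity, and the paper calls its own such cluster putative. TBM-like cells numbered 26 and 52 in the immunized mice. Their Bcl2a1b stood at 468 and 651 CPM and Bcl2a1d at 143 and 230 CPM, and these were the 2 members of 10 called (6.99% of all genes). In the same mice classical monocyte-like cells held 569 and 840 CPM of Bcl2a1b and 203 and 282 CPM of Bcl2a1d. These ranges overlapped the TBM-like ones, so the low A1 level was not particular to TBM-like cells. The DC2-, nonclassical monocyte- and migratory DC-like libraries of these mice lay above them. The TBM-like log2 fold changes against the mean of the 4 gates were -1.09 ± 0.27 (SE, edgeR adjusted p = 0.0091) and -1.40 ± 0.28 (SE, edgeR adjusted p = 8.81e-04). With libraries of at least 30 cells, which leaves 1 TBM-like library, they were -0.88 (edgeR adjusted p = 0.20) and -1.13 (edgeR adjusted p = 0.064). The Bcl2a1b call was also lost with DESeq2 (-0.98, adjusted p = 0.080) and with a margin of 3 markers (-1.07, edgeR adjusted p = 0.16). TBM-like cells held Bcl2l11 at 60.5 and 129 CPM, the first place of the 13 gates by mean, with ranges that overlapped the NK- and classical monocyte-like gates.

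MSM-like cells, marked by genes of medullary sinus macrophages, were shallow, with a median of 1832 UMIs per cell, and counted 205 and 11 cells in the unimmunized mice. Bcl2a1b was at 56.8 and 365 CPM and Bcl2a1d at 17.3 and 162 CPM there, values from 23 and 9 UMIs and from 7 and 4 UMIs. Of 10 members 4 were called (19.7% of all genes). Bcl2a1b lay at -3.32 ± 0.43 (SE, edgeR adjusted p = 5.15e-07), Bcl2a1d at -4.06 ± 0.49 (SE, edgeR adjusted p = 2.07e-07), Mcl1 at -1.05 ± 0.22 (SE, edgeR adjusted p = 5.57e-04) and Bcl2l1 at 2.35 ± 0.84 log2 units (SE, edgeR adjusted p = 0.045). Without unimmunized mouse 1, which leaves the 11 cells of mouse 2, the A1 genes were at -1.94 (edgeR adjusted p = 0.16) and -2.33 (edgeR adjusted p = 0.11), and Bcl2l1 turned to -3.39 (edgeR adjusted p = 1.00). Without unimmunized mouse 2 Bcl2l1 was at 2.49 (edgeR adjusted p = 0.099). Its call was kept in 9 of 19 alternatives, and was lost among others with DESeq2 (2.15, adjusted p = 0.13), with HTODemux (2.02, edgeR adjusted p = 0.066) and in each capture alone (3.00 and 2.28, edgeR adjusted p = 0.15 and 0.18). With every cell thinned to 1000 UMIs, Bcl2a1b and Bcl2a1d were at -3.34 and -4.10 (edgeR adjusted p = 1.38e-09 and 4.09e-09), Mcl1 was at -0.55 (edgeR adjusted p = 0.30) and Bcl2l1 could not be fitted.

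cDC1-like cells, the cross-presenting dendritic cells, had 40 and 12 cells in the unimmunized mice, and 3 of 10 members were called (12.9% of all genes). Bcl2a1b was at 138 and 150 CPM, lower there (log2 fold change -2.48 ± 0.33, SE, edgeR adjusted p = 8.80e-07), and kept that call in every alternative. Bcl2a1d, at 256 and 300 CPM, was not called (log2 fold change -0.62, edgeR adjusted p = 0.15), although it passed with the mouse as a block (-0.61, edgeR adjusted p = 0.047). In both of these libraries Bcl2a1b was below Bcl2a1d, while the cDC1-like library of immunized mouse 1 held 249 and 238 CPM, and in the 4 complete myeloid gates Bcl2a1b was above Bcl2a1d in every library. The counts of the 3 copies together were lower by 1.30 log2 units (log2 fold change -1.30 ± 0.29, SE, edgeR adjusted p = 0.0019). Bid was higher by 1.92 ± 0.38 (SE, edgeR adjusted p = 4.03e-04), a call lost without unimmunized mouse 1 (4.86, edgeR adjusted p = 0.073), with a margin of 3 markers (1.81, edgeR adjusted p = 0.11) and in capture 1 alone (1.42, edgeR adjusted p = 0.28). Mcl1 was called as lower (log2 fold change -0.64 ± 0.19, SE, edgeR adjusted p = 0.019) and was lost without any of the 4 mice in turn, with values from -0.70 to -0.53.

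The balance of anti- against pro-apoptotic members was read as the anti-apoptotic share of the UMIs of all 10 members. It depends on this choice of genes and is not the balance of the whole family. Bcl2a1a, Bmf and Pmaip1 are left out of it, and were higher in myeloid gates by 3.01, 2.96 and 2.74 log2 units. The share was 83.2% ± 5.09 (SD, n = 16 libraries) in the complete myeloid gates and 73.1% ± 5.21 (SD, n = 12 libraries) in the lymphoid ones. Taken within each mouse, the mean of the myeloid gates exceeded that of the lymphoid gates by 10.7 and 5.47 percentage points in the unimmunized and by 12.5 and 11.7 points in the immunized mice. This was the same direction in 4 of 4 mice, with a mean of 10.11 points. Without Bcl2a1b and Bcl2a1d the order turned in all 4 mice, to -2.89, -10.9, -1.46 and -5.07 points. The A1 genes made up 72% ± 9.93 (SD, n = 16 libraries) of the anti-apoptotic UMIs in myeloid and 36.7% ± 14.0 (SD, n = 12 libraries) in lymphoid gates, while Bcl2 made up 1.21% ± 1.08 (SD, n = 16 libraries) and 24.6% ± 13.9 (SD, n = 12 libraries).

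By cell type the share was highest among the complete gates in migratory DC-like cells, at 88.3% to 90.4% in the 4 mice, followed by nonclassical monocyte-like cells at 83.3% to 86.9%, ranges that did not meet. It was lowest in NK-like cells, at 67.0% to 68.7%. MSM-like cells stood at 54.2%, 72% and 56.0% in their 3 libraries and TBM-like cells at 74.9% and 72.4%. The MSM-like value of 72% rests on 18 anti- and 7 pro-apoptotic UMIs (95% exact binomial interval 50.6% to 87.9%). The single libraries gave 67.5% for gamma-delta T-like (95% exact binomial interval 63.9% to 71%), 86.0% for inflammatory macrophage-like (84.3% to 87.5%) and 90.5% for neutrophil-like cells (80.4% to 96.4%), intervals that cover counting error only. Between genes these shares weigh UMIs as counted, which at the 3′ end are not scaled by length.

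**Figure D4:**
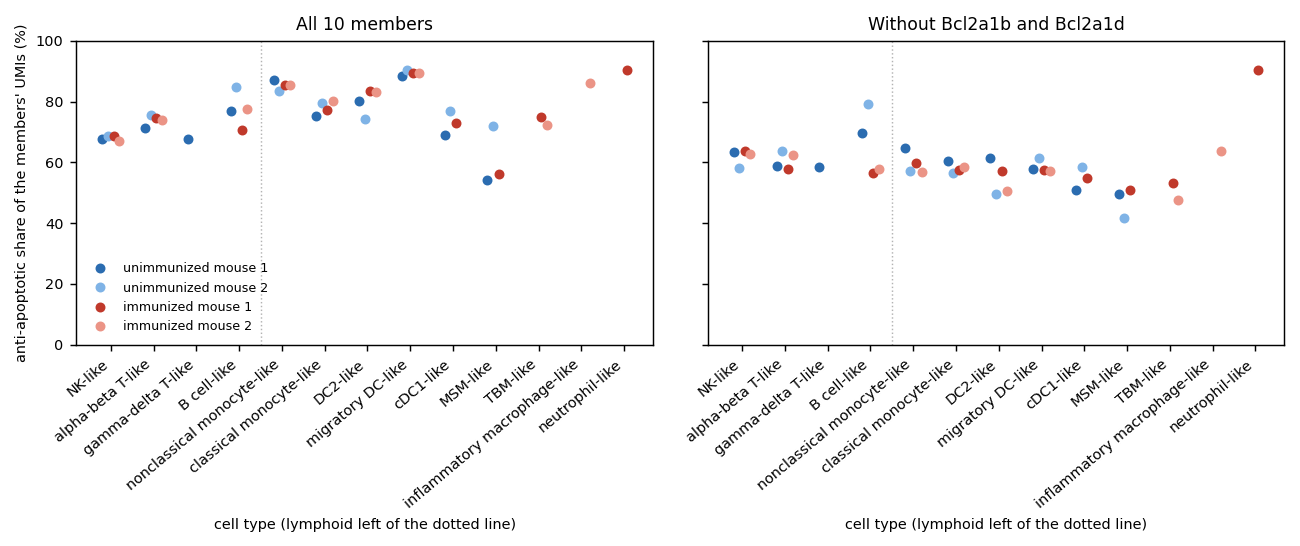
Anti-apoptotic share of the members' UMIs in percent (y axis) for each library, 1 point per mouse, by gated cell type (x axis), with all 10 members on the left and without Bcl2a1b and Bcl2a1d on the right. The complete myeloid gates lie mostly above the complete lymphoid ones on the left panel (83.2% against 73.1%) and not on the right panel (57.7% against 62.8%). These means leave out the MSM-, cDC1- and TBM-like gates, with left-panel means of 60.7%, 73.0% and 73.6%. They also leave out the single inflammatory macrophage- and neutrophil-like libraries, at 86.0% and 90.5%, and the gamma-delta T-like one at 67.5%. The MSM-like mean includes a library at 72% from 11 cells.

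The second question was whether immunization moved these genes within a cell type. No member was called in any of the 7 gates, of 70 values, in edgeR or in DESeq2, with 9 and 8 values at an unadjusted p under 0.05. Few genes of any kind were called. The called share was 0.238% in classical and 0.064% in nonclassical monocyte-like, 0.165% in DC2-like, 0.137% in migratory DC-like, 0.21% in alpha-beta T-like, 0% in NK-like and 0.0274% in B cell-like cells. DESeq2 and edgeR both had 2 mice in each condition to work from. The edgeR p-values measure the spread between mice of the same type and condition, estimated over all gates. A missing call therefore does not show that levels were alike.

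The immunized libraries lay above both unimmunized ones in 12 of the 70 values (17.1%, against 16.5% over all genes tested) and below both in 15 (21.4%, against 19.8%). These shares were near those of all genes. For 5 of the 10 members the immunized libraries were above both others in at least 1 gate and below both in another, against 42.8% of all genes tested. The value with the lowest p was Bcl2a1b in DC2-like cells, at 402 and 404 CPM in the unimmunized and 685 and 1068 CPM in the immunized mice. The immunized libraries were above the unimmunized ones, by 1.21 ± 0.33 log2 units (SE, edgeR adjusted p = 0.15). It passed without immunized mouse 1 (1.48, edgeR adjusted p = 3.78e-04), with no filter on low counts (1.25, edgeR adjusted p = 4.89e-04) and with Leiden clusters (1.23, edgeR adjusted p = 0.0033). Without immunized mouse 1 the immunized arm is a single library, here and in the values that follow, and its spread is assumed to be that of the other groups.

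Bcl2l11 in DC2-like cells was at 22.5 and 27.3 CPM in unimmunized and 30.7 and 107 CPM in immunized mice, so that most of the difference was 1 library. Its 1.59 ± 0.53 log2 units did not pass (SE, edgeR adjusted p = 0.32), but passed with no filter on low counts (1.62, edgeR adjusted p = 0.0025). Without immunized mouse 1, which leaves the library at 107 CPM alone, they were 2.24 (edgeR adjusted p = 6.90e-06). Bcl2l1 in these cells, from 0 to 10.27 CPM, was at 3.01 ± 1.35 (SE, edgeR adjusted p = 0.59) and at 3.61 without immunized mouse 1 (edgeR adjusted p = 0.031). Bcl2a1b in B cell-like cells, at 213 and 186 against 242 and 475 CPM, was at 1.05 ± 0.37 (SE, edgeR adjusted p = 0.46) and at 1.39 without immunized mouse 1 (edgeR adjusted p = 0.019).

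Bcl2 in monocyte-like gates was at lower values in the immunized mice. In nonclassical monocyte-like cells it stood at 93.4 and 57.0 against 43.0 and 32.7 CPM (log2 fold change -0.995 ± 0.34, SE, edgeR adjusted p = 0.42). In classical monocyte-like cells it stood at 14.5 and 19.8 against 4.49 and 6.995 CPM (log2 fold change -1.28 ± 0.56, SE, edgeR adjusted p = 0.55), the first pair resting on 10 and 2 UMIs. Neither passed. Mcl1, Bax and Bid lay within 1 log2 unit of 0 in all 7 gates, which does not show that their levels were alike. The immunized libraries lay below both unimmunized ones in 3 gates for Mcl1, 3 for Bid and 0 for Bax. For Bid they lay above both in 2. Over all genes tested 19.8% of such values lay below.

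**Figure D5:**
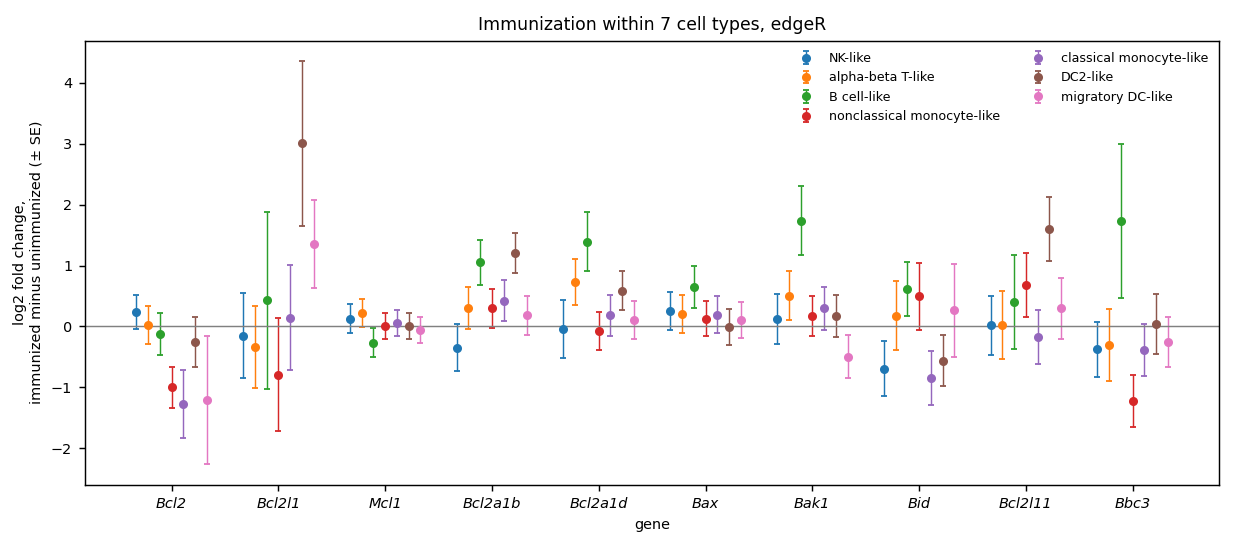
Log2 fold change of immunized minus unimmunized libraries with its SE (y axis) for each member (x axis) in the 7 cell types present in all mice (colours). No point had an edgeR adjusted p under 0.05, and the widest bars belong to thinly counted genes such as Bcl2l1 in DC2-like cells (3.01 ± 1.35).

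The effect of immunization was not shown to differ between the lineages for any member. In the test of that difference no gene of 10930 was called by edgeR (0%), with 607 at an unadjusted p under 0.05, among them 2 of the 10 members, and DESeq2 called 0 of 10930 with 336 at an unadjusted p under 0.05. Bcl2 had the lowest p, with a difference in log2 fold change of -0.98 ± 0.38 between myeloid and lymphoid gates (SE, edgeR adjusted p = 0.81). Bak1 followed at -0.75 ± 0.33 (SE, edgeR adjusted p = 0.83). The 3 lists of other pathway genes of mitochondrial death, inhibitors and receptors and the list of other family genes had no called gene in this test either, with 1 gene in all at an unadjusted p under 0.05. The anti-apoptotic share differed between conditions by 6.03 percentage points in DC2-like cells, where the libraries did not overlap, by -6.86 points in B cell-like cells, where they did, and by at most 1.22 points either way in the other 5 gates.

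Cells that no gate took, 7596 in all, were led by Retnla, Enpp2 and C1qa. In them Bcl2a1b stood at 376 and 560 CPM in the unimmunized and 792 and 1152 CPM in the immunized mice. Bcl2 stood at 108 and 57.0 against 23.3 and 12.2 CPM. The conditions did not overlap for 7 of the 10 members, 5 of them higher and 2 lower in the immunized mice, against 63.2% of all genes tested in these cells, a share near that of the members. These cells are a mixture of types, and no test was run on them.

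The genes whose levels were most alike to 3 members were taken from 5094 genes by Pearson's r of mean log2(CPM + 1) over the 13 gates, which share mice and captures. For Bcl2a1b they were Htra2 (0.955), Ikbkb (0.946), Bcl2a1d (0.940), Cxcl16 (0.925) and Cd40 (0.922), and over the 7 complete gates Ikbkb (0.992) and Bcl2a1d (0.987) were again among the first 5. Over those 7 gates Bcl2 kept Lsm14a alone of its first 5 and Bcl2l11 kept none. For Bcl2 they were Rp9 (0.912), Pdhb (0.906), Swt1 (0.906), Pitpnc1 (0.900) and Lsm14a (0.900). For Bcl2l11 they were Neurl3 (0.832), Lpin2 (0.830), Cers6 (0.806), Klhdc2 (0.801) and Ly6c2 (0.799). These values are descriptions over few points.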

How the data were processed

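CITE-seq libraries of sorted lymph node cells were used, with the mRNA and hashtag counts of 2 captures. The authors mapped reads to an mm10 reference, made UMI counts per gene and barcode with Cell Ranger 4.0.0 (per the submitters' processing notes) and joined the captures with its aggr step, and made hashtag counts with CITE-seq-count. Both matrices were deposited as whole counts without normalization, and used as such. Depth equalization by aggr has no statement in the sources used here. Cell Ranger keeps only reads that map to 1 gene, which bears on the A1 copies. Antibody counts were not used.

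Of 18662 barcodes, 1242 shared a sequence between captures and were dropped, since hashtag barcodes carry no capture number, as were 1425 cells with over 25% mitochondrial UMIs. A mouse was assigned where 1 hashtag held at least 80% of at least 10 hashtag counts, which also removed doublets of different mice. Doublets within a mouse and free RNA were not removed. A cell went to the type with the most of its 6 markers detected, with at least 3 and a margin of 2 over the next type. The gating shares no gene with the members. UMIs were summed per mouse and type and fitted together with edgeR 4.0.16 (filterByExpr, TMM, quasi-likelihood test, R 4.3.3), a mean per type and condition, and Benjamini-Hochberg adjustment over all genes at 0.05. The common dispersion estimate pools all 13 types. Each SE given with an edgeR value was derived from the test, as the absolute log2 fold change over the square root of its F statistic. It becomes very large where F is near 0. P-values measure the spread between the 2 mice of a cell type and condition, estimated over all gates. Differences between cell types are taken up by the fitted means. The main model put no link between the cell types of an animal. The types of 1 mouse share an animal and are paired by it, and the mouse was an alternative as a block. The correlations of their deviations from the group means ran from -0.0182 to 0.40, with a median of 0.0456 over 42 pairs of types.

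CPM used the total UMIs of a library with no further factor. Likeness used log2(CPM + 1) and genes with a mean of at least 4. A count of 0 allows 3 counts, and intervals are exact binomial at 95%. Alternatives were other scaling, DESeq2 1.42.0, no filter, HTODemux (9902 cells), other gates and clusters, thinning to 1000 UMIs (4 gated cells fell below), each capture alone and each mouse left out. Where that left 1 library in a group, its spread was assumed to be that of the other groups. The fits were tested on simulated counts. Positions are GRCm38 (GENCODE M21), the sequence of mm10, and Bcl2, Bcl2a1b, Bax and Bid overlap other annotated genes on the same strand, so that part of their counts is uncertain. All 10 members had at least 1 promoter window.

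The named genes are the 10 members, and of each other list the 3 largest rises and 3 largest falls among called genes in the lineage comparison, and the 5 genes most alike to Bcl2, Bcl2a1b and Bcl2l11. Not every gene that this rule names is reported here. The members and lists were chosen with earlier results of these data known.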

Additional observations from a re-analysis of the deposited data

Results flagged for a closer look

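For 5 members the immunized libraries lay above both unimmunized libraries in at least 1 cell type and below both in at least 1 other, as did 42.8% of all genes tested, a share near that of the members. The difference between these cell types was not tested for single pairs, none of the values passed the edgeR test, and each rests on 2 mice against 2. Bcl2l1 had a log2 fold change of 3.01 in DC2-like cells, from 0 to 17 UMIs per library, and -0.79 in nonclassical monocyte-like cells. Bcl2a1d stood at 1.39 in B cell-like and -0.07 in nonclassical monocyte-like cells. Bak1 stood at 1.74 in B cell-like and -0.50 in migratory DC-like cells. Bid stood at 0.49 in nonclassical and -0.85 in classical monocyte-like cells, and Bbc3 at 1.74 in B cell-like and -1.22 in nonclassical monocyte-like cells. The B cell-like values of Bbc3 come from 0 to 7 UMIs per library. Each condition held 2 mice, too few to look for a mouse far from the others of its group.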

How the results depend on the processing

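Of 10 members, the number called between the lineages stayed between 7 and 9 in every alternative except thinning to 1000 UMIs per cell, where 6 could be fitted and 5 were called, and it was 8 to 9 with 1 mouse left out. The calls for single cell types against their lineage numbered 29, went down to 19 in capture 2 alone and to 8 of 42 when thinned, and ran from 14 to 34 with 1 mouse left out. The same calls numbered 21 with DESeq2 and 41 with Leiden clusters. With the mouse as a replicate block, which pairs the types of an animal, 8 members were called between lineages, 37 values within lineages and 0 for the difference in immunization, and no call named in the report was lost. Immunization within cell types gave 0 calls, with 2 under no filter on low counts, 1 with Leiden clusters, and 0 to 4 with 1 mouse left out (4 without immunized mouse 1), and 0 in the other alternatives. The difference in immunization between the lineages gave 0 calls in all alternatives.

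The balance of 10.11 points turned to -5.09 without Bcl2a1b and Bcl2a1d, was 10.81 when thinned, and ran from 9.31 to 11.66 with 1 mouse left out. Directions that turned were those of Bcl2l1 between lineages in capture 2 alone (0.18), of Bcl2l11 between lineages with a margin of 3 markers (-0.02) and when thinned (-0.18), and of Bcl2l1 in MSM-like cells without unimmunized mouse 1 (-3.39, with values from -3.39 to 2.49 when 1 mouse was left out). Their cause was not tested. Of the 29 values called within a lineage 8 kept their call in all alternatives fitted, and of the 9 called for gates of 1 condition 1 did. Depth limits Bcl2l1, Bid and Bbc3 most, with many libraries under 10 UMIs, so a missing call there does not show that levels are alike.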
